A study of Mus musculus with 2 samples.

Results

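The miR-137, miR-138, miR-153, miR-128, miR-129, miR-132 and miR-212 genes encode small RNAs that are best known from neurons. The 10 genes are Mir137, Mir138-1, Mir138-2, Mir153, Mir128-1, Mir128-2, Mir129-1, Mir129-2, Mir132 and Mir212. They were taken by gene name from the 1973 miRNA genes in the deposited count tables, and all 10 were found. They were measured by microRNA-seq, the sequencing of small RNA, in the embryonic tissue that gives rise to the brain and spinal cord. Both libraries are neural tube of embryonic day 13.5 from mouse strain B6NCrl, with male and female embryos pooled. The labels call the animals healthy and name no mutation or treatment. Replicates 1 and 2 are separate tissue samples under the same strain-level donor entry, and the number of embryos in each pool is not given in the sources used here. With 1 condition, the data allow comparisons among the 10 genes, between gene copies and between the 2 libraries.

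MicroRNAs are cut from hairpin precursors, and either arm of the hairpin can give a mature product of little over 20 bases. The seed, bases 2 to 8 of the mature product, selects most target mRNAs. In the nervous system miR-137 acts on the differentiation of neural progenitors and neurons. MiR-138 limits dendritic spine growth in rat hippocampal neurons, and miR-153 targets proteins of the synaptic vesicle cycle. MiR-128 restrains neuronal excitability in mice, and miR-129 acts in the scaling of synapses in rat neurons. MiR-132 and miR-212 are made from a shared primary transcript that neuronal activity induces through the transcription factor CREB, and miR-132 promotes dendrite growth.

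The mature products of the usually dominant arms are shown because they define which genes can be told apart by reads. Seeds are in capitals, and the sequences are those of RefSeq on GRCm38.p6, where all 10 genes had an entry.
miR-137-3p: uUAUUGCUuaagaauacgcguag
miR-138-5p: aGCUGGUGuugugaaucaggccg
miR-153-3p: uUGCAUAGucacaaaagugauc
miR-128-3p: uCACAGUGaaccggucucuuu
miR-129-5p: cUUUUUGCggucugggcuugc
miR-132-3p: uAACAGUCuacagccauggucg
miR-212-3p: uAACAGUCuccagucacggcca
These 7 sequences carry 6 seeds. No other mature miRNA name in RefSeq holds 5 of them, and the sixth is held by miR-132-3p and miR-212-3p only. Counted from base 1 at the 5′ end, miR-212-3p differs from miR-132-3p by A10C, C14U, U17C, U20C and G22A, so 17 of 22 bases are the same and the differences lie outside the seed.

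The miR-138, miR-128 and miR-129 sequences each come from 2 genes. The hairpins of these 6 genes are shown because the part that copies have in common sets which reads can be assigned to 1 of them. Capitals mark stretches of at least 18 nt that are identical in both copies.
Mir138-1: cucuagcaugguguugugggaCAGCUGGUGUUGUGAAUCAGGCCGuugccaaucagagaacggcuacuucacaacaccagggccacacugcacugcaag
Mir138-2: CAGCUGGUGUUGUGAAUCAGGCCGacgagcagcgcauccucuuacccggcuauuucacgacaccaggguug
Mir128-1: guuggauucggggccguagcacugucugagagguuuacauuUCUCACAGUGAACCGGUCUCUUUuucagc
Mir128-2: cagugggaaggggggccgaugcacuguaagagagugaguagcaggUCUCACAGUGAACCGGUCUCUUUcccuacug
Mir129-1: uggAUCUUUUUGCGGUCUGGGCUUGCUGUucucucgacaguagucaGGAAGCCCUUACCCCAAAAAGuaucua
Mir129-2: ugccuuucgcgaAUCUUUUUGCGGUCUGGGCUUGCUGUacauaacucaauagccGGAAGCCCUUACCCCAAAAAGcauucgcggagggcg
The stretch common to the Mir138 copies is 24 nt long and holds all 23 bases of miR-138-5p. In the Mir128 copies it is 23 nt long and holds all 21 bases of miR-128-3p. The Mir129 copies share 2 stretches, of 26 nt around miR-129-5p and of 21 nt in the other arm, where only 3 of the 22 bases of miR-129-2-3p lie outside. The other arms of the Mir138 and Mir128 copies hold no such stretch.

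Those other arms differ between the copies, as the RefSeq sequences show (seeds in capitals).
miR-138-1-3p: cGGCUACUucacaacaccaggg
miR-138-2-3p: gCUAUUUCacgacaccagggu
miR-128-1-5p: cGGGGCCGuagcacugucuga
miR-128-2-5p: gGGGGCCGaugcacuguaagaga
Positions here are counted from 1 at the 5′ end of the first product. MiR-138-2-3p, which starts 2 bases further in, differs from miR-138-1-3p by C7U and A13G over 20 aligned bases. MiR-128-2-5p differs from miR-128-1-5p by C1G, U9A, A10U, C18A and U19A over 21. Mir137, Mir153, Mir132 and Mir212 share no stretch of 18 nt with another of the 10 hairpins. None of the 10 shares one with any of the other RefSeq hairpins. A mature product of 6 of these 10 genes (60%) also lies in another hairpin, beside 94 of all 1005 hairpins (9.35%). The genes were chosen by family with both copies included, so the share in this set follows from that choice.

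**Figure D1:**
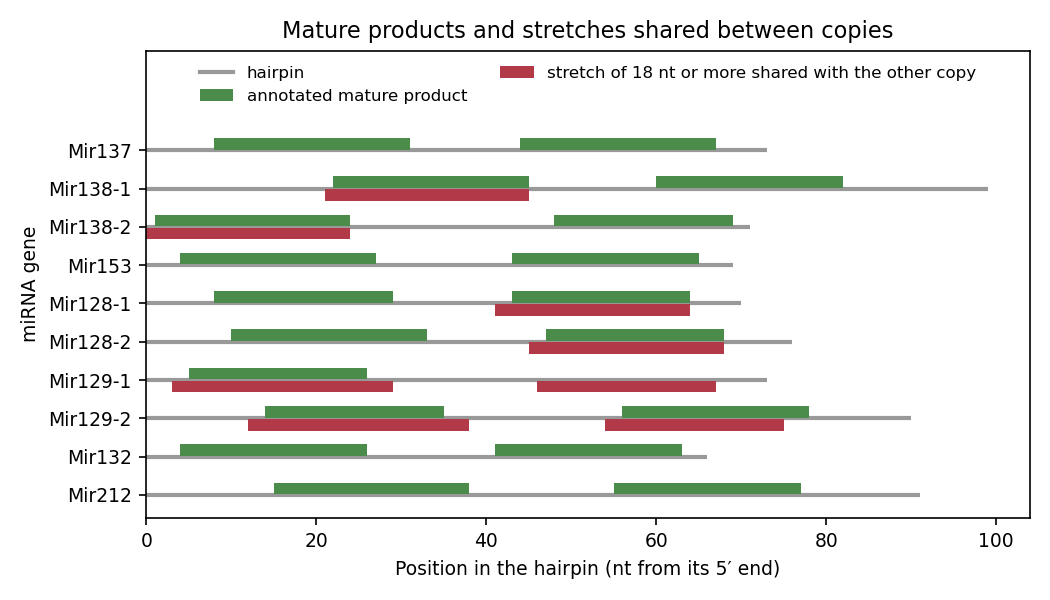
Map of the 10 hairpins, with position from the 5′ end in nt on the horizontal axis and 1 gene per row. Green bars are annotated mature products and red bars are stretches of at least 18 nt shared with the other copy. A red bar covers the whole of 1 mature product in all 6 genes with copies, and Mir129-1 and Mir129-2 carry a second.

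The deposited tables list reads that map to several places on a line of their own, outside every gene. They numbered 3921182 in replicate 1 and 3310889 in replicate 2, which is 312 and 373 reads for each count on the 6 genes with copies. How many of them are miR-138-5p, miR-128-3p or miR-129-5p was not tested. Every base of miR-138-5p, miR-128-3p and miR-129-5p lies in a stretch identical in both copies, so an exact read of them fits both. Such reads cannot be assigned to either gene. The counts of these 6 genes, and every ratio that uses them, are therefore counts of assigned reads and leave such reads out. The counts understate these mature products to an extent that was not tested. The tables do not separate the arms of a hairpin. All values below are counts on the strand of the gene, and CPM (counts per 1000000) scales such a count to the library's same-strand total over miRNA genes, 7019469 in replicate 1 and 5738209 in replicate 2. A read covers a whole mature product, so CPM was not divided by gene length. Ligation and amplification efficiency differ between small RNAs, and levels of different genes compare counts, not molecules.

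Each of the 10 genes passed 10 counts in both libraries, and all passed 100 in both. Across all miRNA genes, 18.8% (371 of 1973) passed 10, and 273 of the 1973 passed 100. No count in either library was found for 1247 of the 1973. The 10 genes were chosen with earlier results of these data known. Their detection and their median level below therefore do not set them apart. The 10 genes together held 0.776% of the counts in replicate 1 and 0.763% in replicate 2 (mean 0.770% ± 0.0090, SD, n = 2). Their median level was 342 CPM, beside 95.1 CPM over the 371 detected genes. No member had any opposite-strand count in either library. The genes of the table together held 100058 and 85834 such counts. The share of all genes with none was not computed, so this does not set the members apart. A count of 0 allows up to 3 counts, or 0.427 CPM in replicate 1 and 0.523 CPM in replicate 2.

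Mir137 was the highest of the 10. It had 35272 counts or 5025 CPM in replicate 1 and 29655 counts or 5168 CPM in replicate 2 (mean 5096 ± 101 CPM, SD, n = 2). Only 29 genes of the table had a higher mean. Mir137 lies at chr3:118433857-118433929 on the plus strand (GENCODE M21, GRCm38), in an exon of the long transcript gene Gm26871. It alone held 64.7% of the counts of the 10 genes in replicate 1 and 67.7% in replicate 2. The genes nearest to it in mean level over the 2 libraries were Mir143 and Mir127 above, at log2 distances of 0.09 each. Mir181d and Mirlet7b followed below, at -0.18 and -0.20.

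The other genes of the group here named early neuronal, Mir138-1, Mir138-2, Mir153, Mir128-1 and Mir128-2, lay between 259 and 649 CPM in the mean. That name is a grouping, and no timing was measured. Mir138-1, at chr9:122682876-122682974 on the plus strand, in an exon of the transcribed pseudogene Gm47135, had 760 CPM in replicate 1 and 539 CPM in replicate 2. Mir138-2, at chr8:94324311-94324381 on the plus strand, in an exon of the long non-coding gene C78859, had 338 and 271 CPM. Both copies were higher in replicate 1.

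Mir153, at chr12:117250817-117250885 on the plus strand, lies in an intron of Ptprn2, which encodes a phosphatase-like protein of secretory vesicles. Its level was 508 CPM in replicate 1 and 509 CPM in replicate 2 (mean 508 ± 0.78 CPM, SD, n = 2). That SD is far below counting error, since the exact 95% Poisson interval was 491 to 525 CPM in replicate 1, so the closeness of the 2 values is no measure of precision. Mir128-1, at chr1:128202361-128202430 on the plus strand in an intron of R3hdm1, had 360 and 400 CPM. Mir128-2, at chr9:112118636-112118711 on the minus strand in an intron of Arpp21, a gene for a cAMP-regulated neuronal phosphoprotein, had 264 and 255 CPM. Mir128-1 was higher in replicate 2, and Mir128-2 was 8.42 CPM higher in replicate 1, within its counting interval.

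The activity-related genes were unequal. Mir132 had 2833 counts or 404 CPM in replicate 1 and 2201 counts or 384 CPM in replicate 2, a mean of 394 ± 14.2 CPM (SD, n = 2). Mir212 had 239 counts or 34.0 CPM and 162 counts or 28.2 CPM, a mean of 31.1 ± 4.11 CPM, the lowest of the 10. Mir212 (chr11:75173388-75173478) and Mir132 (chr11:75173682-75173747) lie 203 bp apart on the plus strand, in an intron of the processed transcript 1700016P03Rik. Mir132 thus stood among the early neuronal genes in level and Mir212 with the Mir129 genes.

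The Mir129 genes were also low. Mir129-1, at chr6:29022619-29022691 on the plus strand in an exon of the long non-coding gene Gm3294, had 246 counts or 35.0 CPM in replicate 1 and 197 counts or 34.3 CPM in replicate 2. Mir129-2, at chr2:94241364-94241453 on the minus strand in an intron of Mir670hg, had 248 counts or 35.3 CPM and 264 counts or 46.0 CPM. The annotation M21 also places a gene on the other strand of Mir129-2, Mir129b, which is not analysed here.

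By mean level the order was Mir137, Mir138-1, Mir153, Mir132, Mir128-1, Mir138-2, Mir128-2, Mir129-2, Mir129-1 and Mir212. The steps of 7.85-fold below Mir137 and of 6.38-fold below Mir128-2 were the widest, and they divide the genes into 1 high, 6 intermediate and 3 low. Mir132 and Mir128-1 did not differ beyond their spread, as their ranges over the 2 libraries overlapped. The ranges of all other neighbours lay apart, but with 2 libraries this is a weak criterion. Counting intervals overlapped in 1 library for Mir132 and Mir128-1, Mir138-1 and Mir153, Mir128-1 and Mir138-2, Mir138-2 and Mir128-2, Mir129-2 and Mir129-1, and in both libraries for Mir129-1 and Mir212. When copies are summed, miR-138 stood at 954 ± 203 CPM, miR-128 at 639 ± 22.4 CPM and miR-129 at 75.4 ± 7.04 CPM (SD, n = 2). Summed miR-128 then lay above miR-153, whereas each of its genes lay below it. These sums still leave out reads that fit both copies, whereas Mir153 has no copy among these hairpins. The order of genes with and without copies, and the low place of the Mir129 genes, therefore compares unlike counts.

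**Figure D2:**
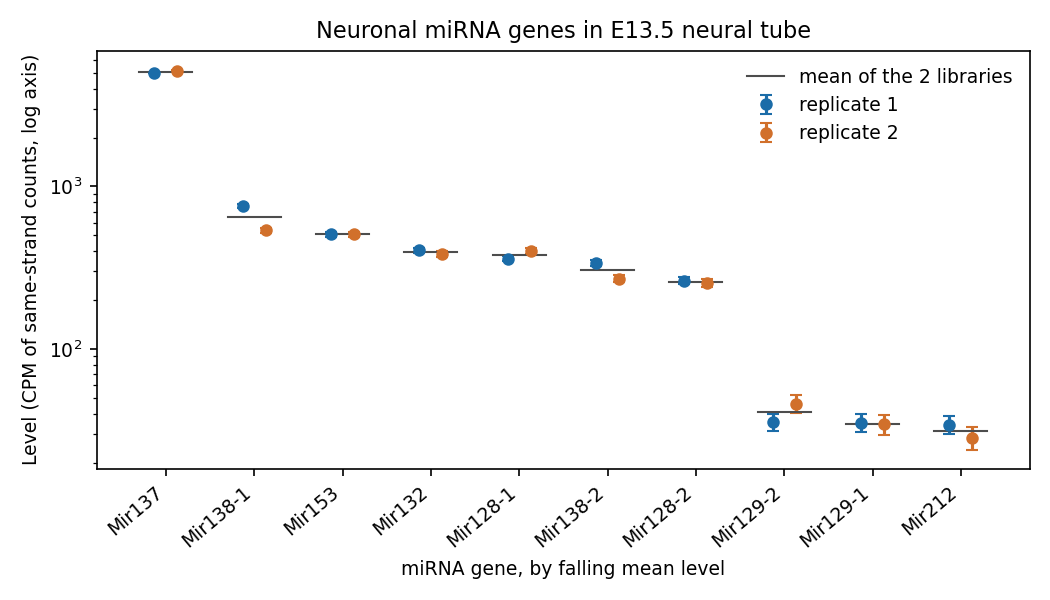
Level of each gene in CPM (vertical log axis) in replicate 1 and replicate 2, with genes ordered by mean level. Points are libraries, error bars are exact 95% Poisson intervals for counting error, and grey lines are means of 2 libraries. Mir137 stands near 5096 CPM, 6 genes lie between 259 and 649 CPM in the mean, and Mir129-2, Mir129-1 and Mir212 lie between 31.1 and 40.7 CPM.

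The group named early neuronal far outweighed the activity-related genes in summed counts. The group names are labels, and timing, maturation and activity were not measured. Mir137, both Mir138, Mir153 and both Mir128 genes summed to 7253 CPM in replicate 1 and 7142 CPM in replicate 2, against 438 and 412 CPM for Mir132 with Mir212. On the log2 scale the ratio was 4.05 in replicate 1 and 4.12 in replicate 2 (mean 4.08 ± 0.05, SD, n = 2), or 17.0-fold. Mir137 carried much of it: without Mir137 the early group summed to 2228 and 1974 CPM, and the mean log2 ratio was 2.30 ± 0.06, or 4.94-fold. The groups hold 6 and 2 genes, and the mean of log2(CPM + 1) per gene differed by 2.43. The Mir129 genes, the maturation group, summed to 70.4 and 80.3 CPM, which is 1.05% or less of the counts of the 10 genes. Their mean log2 ratio to the activity-related genes was -2.50 ± 0.20. These differences between groups exceeded the SD of the ratios, but 2 ratios cannot give an exact two-sided sign-flip p below 0.5, and no p-value is given.

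The paired genes divided their counts differently. Mir138-1 held 69.2% of the counts of its pair in replicate 1 (exact 95% binomial interval 68.2 to 70.3) and 66.5% in replicate 2 (65.2 to 67.9). Its log2 ratio to Mir138-2 was 1.17 and 0.99, a mean of 1.08 ± 0.13 (SD, n = 2), or 2.12-fold. Mir128-1 held 57.7% (56.2 to 59.2) and 61.1% (59.5 to 62.6), a mean log2 ratio to Mir128-2 of 0.55 ± 0.14, or 1.46-fold. In both pairs the first copy was the higher in each library, by more than the SD of the ratios.

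For the Mir129 pair the order was not resolved in replicate 1. Mir129-1 held 49.8% of the pair's counts in replicate 1 (45.3 to 54.3) and 42.7% in replicate 2 (38.2 to 47.4), a mean log2 ratio to Mir129-2 of -0.22 ± 0.29, smaller in size than its SD. In these hairpins, printed above, 47 of 73 bases (Mir129-1) and 47 of 90 bases (Mir129-2) lie in shared stretches, and the part of this in the low counts was not tested. Mir132 held 92.2% (91.2 to 93.1) and 93.1% (92.0 to 94.1) of the counts of Mir132 and Mir212, a mean log2 ratio of 3.67 ± 0.14, or 12.7-fold. Those hairpins share no stretch of 18 nt, and the genes share a host gene and a seed. These intervals hold for counting error alone and take every read as independent, while the labels name no molecular identifiers.

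**Figure D3:**
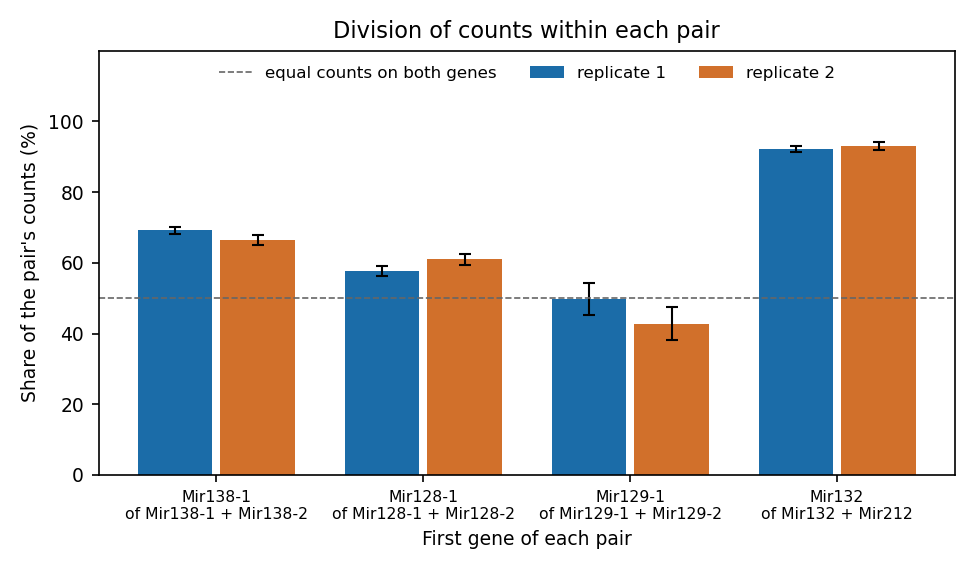
Share of a pair's counts (vertical axis, %) held by its first gene in replicate 1 and replicate 2. Error bars are exact 95% binomial intervals and the dashed line marks equal counts. For the Mir138, Mir128 and Mir129 pairs, reads that fit both copies are left out. The first gene held 66.5% to 69.2% for Mir138, 57.7% to 61.1% for Mir128, 42.7% to 49.8% for Mir129 and 92.2% to 93.1% for Mir132 with Mir212.

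Between the libraries most of the genes differed little. The difference is the log2 ratio of replicate 1 over replicate 2, with 0.5 added to each count and libraries scaled by TMM, a trimmed-mean factor. Of the 306 genes whose counts summed to at least 100, 9.48% (29) differed by more than 0.5 log2 units either way, and 1 of the 10 neuronal genes did. With 1 library on each side there is no replicate check. The median size of the difference was 0.11 in the 10 genes and 0.17 over the 306. Mir137 stood at -0.01 (exact 95% counting interval -0.03 to 0.02) and Mir153 at 0.03 (-0.04 to 0.10).

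Mir138-1 was the gene past the limit, at 0.53 (0.46 to 0.59, an interval that includes the limit), and Mir138-2 differed in the same direction at 0.35 (0.26 to 0.44). Scaled to plain totals Mir138-1 was at 0.49 and no member passed 0.5. Mir212 stood at 0.30 (0.01 to 0.60) and Mir132 at 0.11 (0.03 to 0.19). Mir128-2 was at 0.08, Mir129-1 at 0.06, Mir128-1 at -0.12 and Mir129-2 at -0.35 (-0.60 to -0.09). In total 7 of the 10 were higher in replicate 1, beside 151 of the 306 genes tested. With plain totals these counts were 6 and 135, and Mir153 changed sign to -0.0032. The difference of the first copy minus that of the second was 0.18 for Mir138, -0.20 for Mir128 and 0.41 for Mir129.

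Levels of some miRNAs of other cell types also differed between the libraries, and their part in these differences was not tested. The liver miRNA Mir122 had 118 CPM in replicate 1 and 30.7 CPM in replicate 2. The skeletal and heart muscle list summed to 182 and 417 CPM, with 4 of its 8 genes detected and Mir133a-1 and Mir133a-2 at 0. Those 2 are gene copies, so reads that fit both may be missing, and the 0 is no sign of absence. The genes of the muscle list did not move together. Mir206, at 117 and 373 CPM, held most of the sum. Mir499, at 6.98 and 12.7 CPM, and Mir133b, at 0.997 and 5.05 CPM, were also higher in replicate 2. In contrast, Mir208b had 48.2 and 22.7 CPM, Mir208a 8.26 and 3.83 CPM, and Mir1a-1 3 and 0 counts. Of the 3 muscle genes with at least 100 counts summed, all passed 0.5 log2 units, 1 higher and 2 lower in replicate 1. The multiciliated-cell list summed to 84.3 and 533 CPM, with 1 of 3 detected, and the red-cell list to 76.1 and 48.3 CPM, with 3 of 3 detected. In the red-cell list Mir451a stood at 1.18 log2 units, Mir144 at 0.25 and Mir486 at 0.09. Mesenchymal miRNAs summed to 8467 and 10448 CPM (5 of 6 detected). Among them Mir145a stood at 0.27 log2 units, whereas Mir143, Mir140, Mir199a-2 and Mir214 stood at -0.17, -0.27, -0.33 and -0.91. Endothelial Mir126a was at 17134 and 16019 CPM, a small difference of 0.13 log2 units. The leukocyte list summed to 256 and 237 CPM with 3 of 3 detected, Mir223 and Mir150 at 0.37 and 0.24 log2 units and Mir155 at -0.27. In a tissue sample, fewer cells of a type and less of an RNA per cell cannot be told apart.

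**Figure D4:**
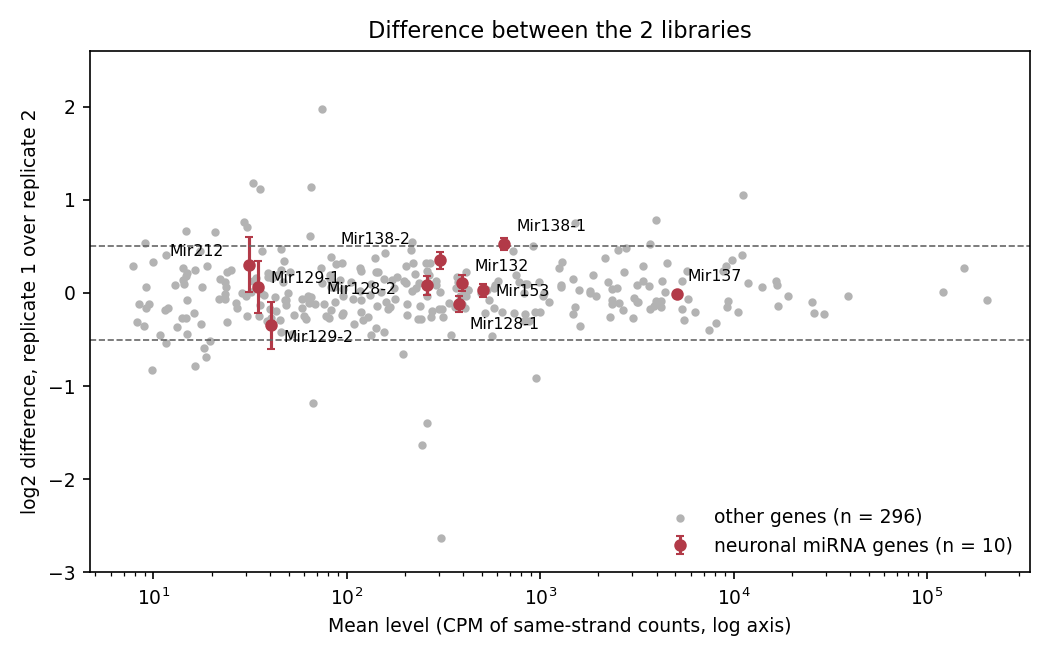
Difference between the libraries (vertical axis, log2 of replicate 1 over replicate 2) against mean level (horizontal log axis, CPM) for the 306 genes with at least 100 counts summed. Red points are the 10 neuronal genes with exact 95% counting intervals, grey points the others, and dashed lines mark 0.5 log2 units either way. Mir138-1 at 0.53 is the only red point past a line.

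Other miRNAs of neurons were set beside these genes. Of 17 further neuronal miRNA genes, 14 passed 10 counts in both libraries, and the 17 summed to 2973 CPM in replicate 1 and 3110 CPM in replicate 2. Their median level was 168 CPM, against 342 CPM for the 10 genes. The list holds several gene copies of miR-9, miR-124, miR-218 and miR-7. Reads that fit several copies may be missing from both sets, so these medians do not rank the sets. The highest was Mir134, a regulator of dendritic spines in rat neurons, at 943 ± 111 CPM (SD, n = 2), followed by Mir9-3 at 394 ± 29.7 CPM and Mir7b at 289 ± 14.0 CPM. Mir9-2, named after its values were seen, had 9 and 3 counts. Of the 13 that passed 100 counts summed, 1 differed by more than 0.5 log2 units, Mir218-1 at 0.71, which was named after its value was seen. The defining neuronal miR-124 was nearly uncounted, with 31 and 15 counts on Mir124a-2, 14 and 8 on Mir124a-1, and 1 and 0 on Mir124a-3 (named after its values were seen). It also has several gene copies, so its level is no check of the tissue label.

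The oligodendrocyte-lineage list, Mir219a-2, Mir338 and Mir219a-1, summed to 2765 CPM in replicate 1 and 2690 CPM in replicate 2. Mir219a-1 and Mir219a-2 are gene copies, so reads that fit both may be missing. The sum is therefore not ranked against Mir137, which has no copy among the hairpins. Progenitor and proliferation miRNAs, all 9 detected, summed to 44080 and 49744 CPM, with Mir17 (19154 ± 661 CPM, SD, n = 2) above Mir93 (9294 ± 850 CPM) and Mir20a (8098 ± 1408 CPM). Of their 8 genes that passed 100 counts summed, none differed between the libraries by over 0.5 log2 units, and the same held for the 3 oligodendrocyte genes. Beside the 9.48% of all 306 genes past that limit, lists this short are not set apart by a count of 0.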

How the data were processed

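MicroRNA-seq was available for 2 neural tube libraries of 1 group. The authors deposited raw counts per miRNA gene, on build mm10 with annotation M4, per the file headers and the deposited listing. The names of the aligner and counter were not given in the sources used here. All tables have 3 count columns, and the second was used as the same-strand column because it held 7019469 and 5738209 counts against 100058 and 85834 in the third. Lines for unmapped, multimapping, ambiguous and no-gene reads were left out of totals (multimapping 28.5% and 31.0%, unmapped 17.4% and 12.2%, no gene 2.95% and 3.10% of reads). Names and coordinates came from GENCODE M21 on GRCm38, matched without version for 1894 of 1973 identifiers. Member coordinates were the same in RefSeq, GRCm38.p6.

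CPM, ratios and exact intervals were computed with Python 3.11.15 and scipy 1.17.1, and scaling with edgeR 4.0.16 and DESeq2 1.42.0 in R 4.3.3. No test between conditions was possible. The difference between libraries was computed for all genes. Its calculation was checked on simulated counts that hold counting error only, so the check does not cover spread between replicates. The named genes were the 10 members, up to 3 highest genes of each list, and the 2 nearest in mean level above and below Mir137 and Mir128-1. Further genes were named outside this rule with their values seen. In the muscle and mesenchyme lists these were Mir208a, Mir133b, Mir1a-1, Mir133a-1, Mir133a-2, Mir145a and Mir199a-2. The members and lists were chosen with earlier results of these data known.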

Additional observations from a re-analysis of the deposited data

Results flagged for a closer look

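Reads outside the counts used here included those mapping to several places, 3921182 of them for replicate 1 and 3310889 for replicate 2. These numbers are given because 1 mature product of each of 6 of the 10 neuronal genes also lies in a second hairpin. The share of these reads that belongs to miR-138, miR-128 or miR-129 was not tested.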

How the results depend on the processing

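The log2 ratios of Mir138-1 to Mir138-2, Mir128-1 to Mir128-2 and Mir132 to Mir212 kept their direction and moved by less than their SD with pseudocounts of 0.5 or 5. The unstranded column gave identical ratios by construction, since no member has opposite-strand counts. With 1 replicate left out, each value is the ratio of the remaining library, positive in both, and they ranged from 0.99 to 1.17, 0.45 to 0.65 and 3.57 to 3.76, and Mir129-1 to Mir129-2 ranged from -0.42 to -0.01. The level of the 10 genes together was 7698 CPM, 7587 with the unstranded column, 9678 with the most abundant gene left out of the total, and 4910 with multimapping reads added to it, shifts that follow from the totals. The log2 ratio of early neuronal to activity-related genes was 2.30 without Mir137, 2.43 as a mean per gene and 3.85 with the Mir129 genes added to the activity-related group. With plain totals 0 members differed by more than 0.5 log2 units in place of 1. The count over all genes was 105 with at least 10 counts summed and 319 with at least 1, in place of 29, and 589 genes were detected at 1 count in each library in place of 371. The sum of copies, chosen after seeing the data, reversed the order of miR-128 and miR-153 (log2 ratio 0.33, against -0.42 for Mir128-1 alone). No paired analysis was possible because there is 1 group. Depth limits Mir129-1, Mir129-2 and Mir212, with 162 to 264 counts per library.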

Other observations

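Mir670, in the annotation a neighbour of Mir129-2 in the same long non-coding gene Mir670hg and 19847 bp away, was looked at after its counts were seen. It had 240 counts or 34.2 CPM in replicate 1 and 248 counts or 43.2 CPM in replicate 2, beside 248 and 264 counts for Mir129-2, and both were higher in replicate 2 by CPM. Gm24155, a predicted miRNA gene 792 bp from Mir137, had 1 count in each library. Near Mir128-1, the middle gene by level, the closest genes in mean CPM were Mir363 and Mir9-3 above and Mir320 and Mir676 below, at log2 distances of 0.02, 0.05, -0.01 and -0.03.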
